A study of Danio rerio with 24 samples.

Results

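The Hairy and Hey family comprises transcriptional repressors of the basic helix-loop-helix class, and 10 of its genes were followed in sorted zebrafish germ cells. The genes were her1, her3, her5, her6, her7, her9, hes6, hes2.2, hey1 and hey2. They were found by gene name among the 32520 genes of each expression table, and each name matched 1 gene ID. The names themselves had been chosen by their TPM per library in these same 20 libraries, so their levels and differences are given as a description. Primordial germ cells (PGCs), the embryonic precursors of eggs and sperm, had been sorted by fluorescence from transgenic embryos whose germ cells carry a fluorescent protein. The 20 RNA libraries form 8 groups. At 75% epiboly, during gastrulation, and again at 1 day post-fertilization (1 dpf), there were 3 control and 3 smad1-cKO libraries. The same stages had 2 control-MO and 2 smad1-KD libraries each. Control embryos were wild type (WT by genotype) and raised in Holtfreter's water. The smad1-cKO embryos had a knockout of smad1 restricted to the germline, and the driver of that knockout is not given in the sources used here. The control-MO and smad1-KD embryos were also WT, and had been injected with a control or a smad1 morpholino. Such an oligomer is antisense to its target transcript and acts in the whole embryo, not in germ cells alone. The labels do not say how many embryos or clutches a library pooled, so a p-value covers library-to-library spread alone, and that spread could be technical.

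Hairy and Hey proteins bind DNA as dimers, and many of their genes are switched on by Notch receptors. The Hairy proteins recruit Groucho corepressors. In the zebrafish presomitic mesoderm her1 and her7 are among the cyclic genes of the segmentation clock, in which their proteins repress their own genes. Hes6 is a dimer partner that is not itself cyclic. Others act in the neural plate, where they hold back neuron formation, or in blood vessels. BMP ligands act through Smad1, Smad5 and Smad9, and the study asked what this pathway does in germ cells. No promoter, protein or other sequence of these genes was analysed here.

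The values are TPM, each gene's share of its library's transcripts after scaling for transcript length, so levels can be set side by side between genes. TPM keep no read depth, and the depth is therefore unknown. Between 13371 and 24547 genes were detected (TPM above 0) in a library. The smad1 transcript stood at 9.68 to 17.9 TPM in control and 1.11 to 5.09 TPM in smad1-cKO libraries at 75% epiboly, and at 134 to 140.0 against 11.7 to 16.4 TPM at 1 dpf. In the morpholino experiment smad1 stood at 9.80 and 9.96 against 2.60 and 4.23 TPM, and at 193 and 201 against 70.3 and 170.3 TPM. Germ cell transcripts were present throughout but at very different levels between the experiments. The summed level of 10 germ cell markers was 4129 to 32546 TPM in the control and smad1-cKO libraries at 75% epiboly and 757 to 1612 TPM in the morpholino libraries. At 1 dpf it was 13089 to 20253 TPM against 1027 to 5181 TPM. Blood markers, 6 in number, summed to 0.0451 to 113 TPM in control and smad1-cKO libraries at 1 dpf, but to 6941 and 18503 TPM in control-MO and 32386 and 67813 TPM in smad1-KD libraries. The sorted populations thus carried transcripts of other cell types in unequal amounts. In such bulk libraries fewer cells of a type and less RNA per cell cannot be told apart.

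**Figure D1:**
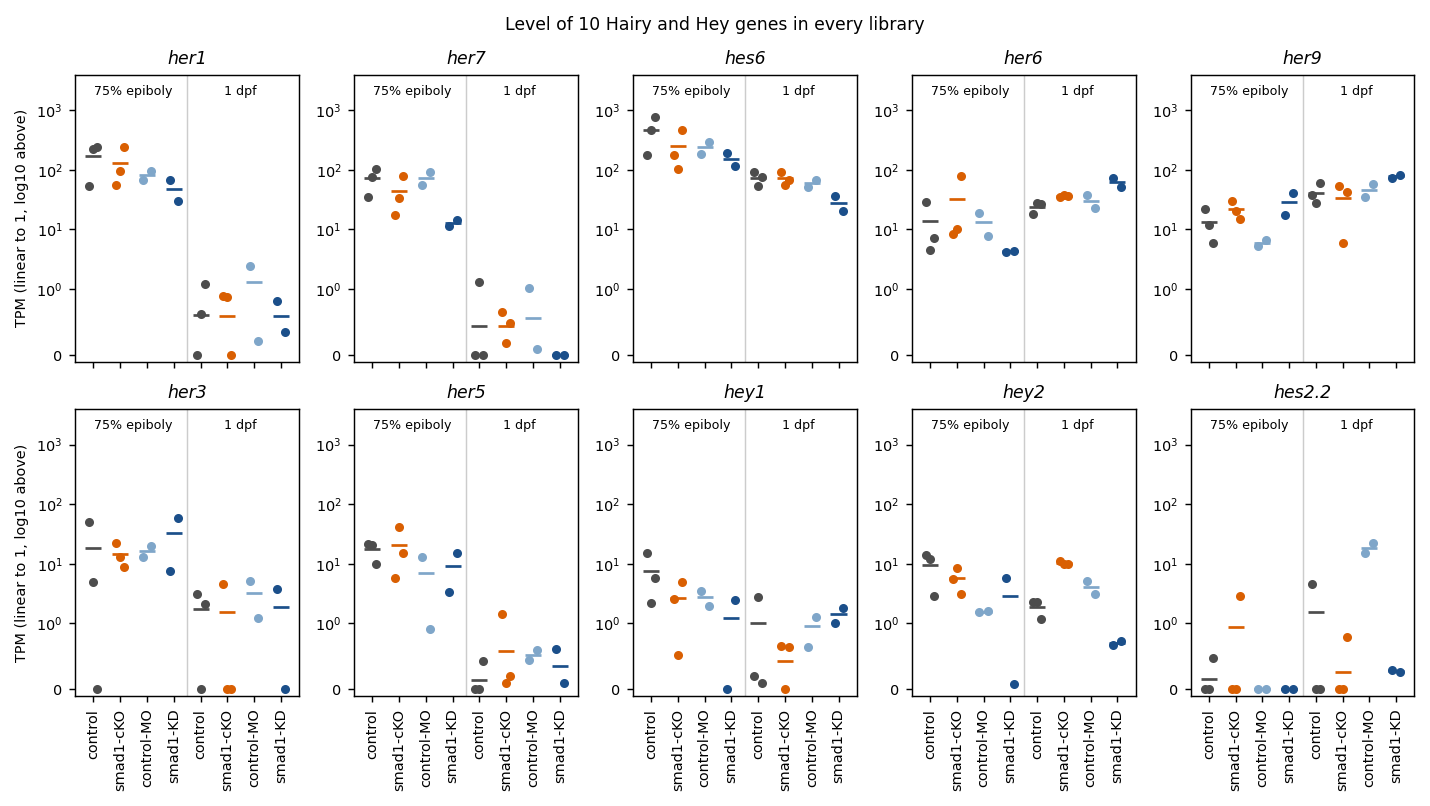
Each panel plots the TPM of 1 gene (vertical axis, linear up to 1 and log10 above) in the 8 groups; points are libraries and bars are group means. The levels of her1 and her7 lie at 11.3 TPM or more in all libraries at 75% epiboly and at 2.42 TPM or less in all libraries at 1 dpf, while her6 and her9 are above 4 TPM in every library.

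The family's makeup differed between the stages. At 75% epiboly the 10 genes together reached 282 to 1165 TPM per library (median 389), and at 1 dpf 110.0 to 199.7 TPM (median 159.8). The gene hes6 was the most abundant member in all 10 libraries at 75% epiboly and in 8 of 10 at 1 dpf. The clock genes her1 and her7 together made up 15.7 to 39.9% of the family's TPM at 75% epiboly and 0 to 2.22% at 1 dpf. The genes her6 and her9 together made up 1.11 to 16.0% at 75% epiboly and 35.5 to 85.2% at 1 dpf. The ranges of the 2 stages did not meet for either share. A share also rises when other members fall. In TPM both genes were higher at 1 dpf without overlap in control-MO and smad1-KD, and her9 also in control. Between the stages her6 overlapped in control, and both genes overlapped in smad1-cKO. The stages lie in separate tables that the authors made separately, so these levels are set side by side and were not tested.

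**Figure D2:**
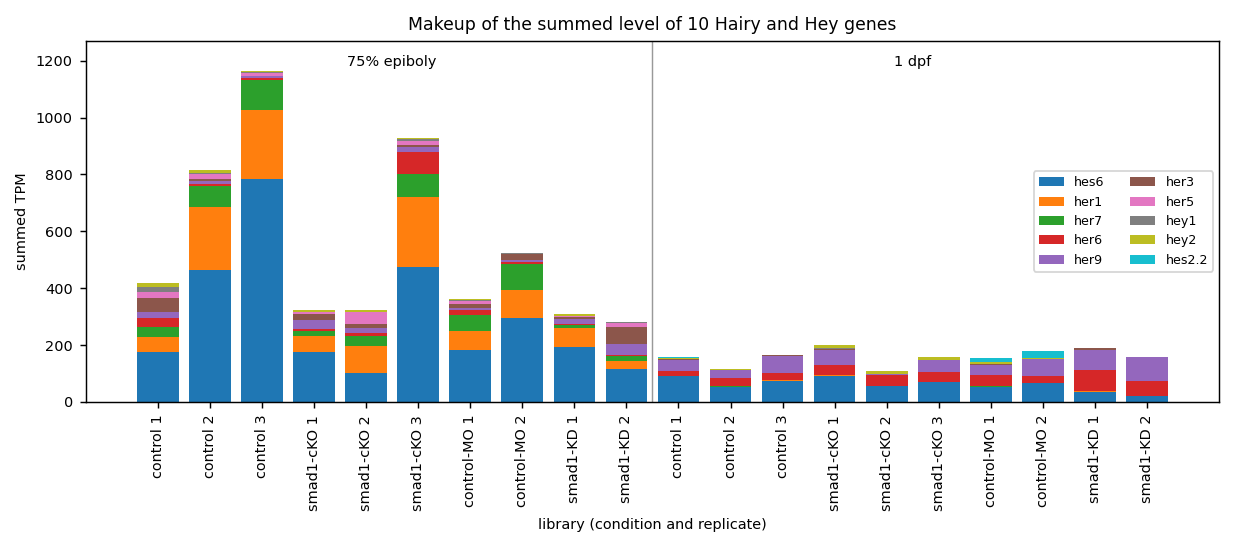
Stacked bars give the summed TPM of the 10 genes (vertical axis, linear from 0) in each library, coloured by gene. At 75% epiboly hes6, her1 and her7 fill most of each bar, and at 1 dpf hes6, her6 and her9 do, with hes2.2 visible in the 2 control-MO libraries alone.

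The clock gene her1 was among the most abundant members at gastrulation and nearly absent a day later. At 75% epiboly her1 stood at 54.1, 223 and 243 TPM in control, 55.2, 95.3 and 246.8 TPM in smad1-cKO, 68.8 and 96.3 TPM in control-MO and 67.0 and 29.5 TPM in smad1-KD libraries. At 1 dpf it ranged from 0 to 2.42 TPM over 10 libraries and was below 1 TPM in 8 of them. Control and smad1-cKO libraries overlapped at 75% epiboly, whereas both smad1-KD libraries were below both control-MO libraries, by a narrow margin in replicate 1.

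Its partner her7 showed the same loss between stages and a wider gap in the knockdown. At 75% epiboly her7 stood at 35.1, 75.5 and 105.2 TPM in control and 17.4, 34.3 and 80.1 TPM in smad1-cKO libraries. It stood at 54.9 and 92.1 TPM in control-MO and 11.3 and 14.6 TPM in smad1-KD libraries. Both knockdown libraries were thus below every other library of that stage. At 1 dpf her7 was at 0 to 1.30 TPM, listed at 0 in 4 of 10 libraries and in both smad1-KD libraries. The order of group means at 75% epiboly was control-MO (73.5 ± 26.3 TPM, SD, n = 2), control (71.9 ± 35.2, n = 3), smad1-cKO (44.0 ± 32.4, n = 3) and smad1-KD (12.95 ± 2.35, n = 2). In that order only smad1-KD stood apart from the group before it.

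The ratio of her1 to her7 within a library does not depend on how libraries are scaled. At 75% epiboly it stood apart between the morpholino groups but not between control and smad1-cKO. It was 1.54, 2.95 and 2.31 in control and 3.16, 2.77 and 3.08 in smad1-cKO libraries at 75% epiboly, which overlap. It was 1.25 and 1.05 in control-MO and 5.93 and 2.02 in smad1-KD libraries, which do not. The share of all gene pairs whose ratios stood apart in this way is not given here. The genes her1 and her7 are next to each other in the RefSeq gene order of assembly GRCz12tu, counting protein-coding genes.

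The dimer partner hes6 had the highest median level of the 10 members over the libraries of either stage. At 75% epiboly hes6 stood at 176, 462 and 785 TPM in control and 177, 102 and 473 TPM in smad1-cKO libraries. It stood at 182 and 297 TPM in control-MO and 192 and 116 TPM in smad1-KD libraries. Control and smad1-cKO overlapped, and so did the morpholino groups. At 1 dpf hes6 stood at 91.4, 53.3 and 74.9 TPM in control and 92.3, 54.9 and 68.9 TPM in smad1-cKO libraries, nearly the same value in same-numbered libraries. It stood at 51.9 and 68.2 TPM in control-MO and 36.1 and 20.4 TPM in smad1-KD libraries, the only group of that stage that stood apart from the others. No library at 1 dpf reached the lowest value at 75% epiboly, 102 TPM.

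At 75% epiboly the level of her1 varied with markers of the forming mesoderm. The 13 segmentation and presomitic mesoderm markers, among them tbx16 and tbxta, summed to 483, 1112 and 1082 TPM in control and 429, 679 and 1299 TPM in smad1-cKO libraries. They summed to 697 and 717 TPM in control-MO and 661 and 392 TPM in smad1-KD libraries. The libraries low in her1, control replicate 1 and smad1-cKO replicate 1 and smad1-KD replicate 2, were also the 3 lowest for these markers. In these 3, her7 stood at 35.1, 17.4 and 14.6 TPM and hes6 at 176, 177 and 116 TPM. The lowest her7 library was another, smad1-KD replicate 1, at 11.3 TPM beside a marker sum of 661 TPM. The lowest hes6 library was smad1-cKO replicate 2, at 102 TPM beside 679 TPM. At 1 dpf the markers summed to 12.2 to 66.8 TPM over all 10 libraries. Their part in the levels of her1, her7 and hes6 was not tested.

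The genes her6 and her9, which resemble mammalian Hes1 and Hes4, were detected in all 20 libraries. At 1 dpf her6 stood at 18.4, 28.0 and 26.3 TPM in control and 35.2, 38.2 and 36.1 TPM in smad1-cKO libraries, so the groups did not overlap. It stood at 38.0 and 22.9 TPM in control-MO and 73.9 and 52.4 TPM in smad1-KD libraries, again without overlap. Thus her6 was higher in the smad1-deficient group of each experiment at that stage, by 1.51-fold and 2.07-fold in group means. At 75% epiboly the picture was mixed. There her6 stood at 29.4, 4.53 and 7.10 TPM in control and 8.38, 10.1 and 80.2 TPM in smad1-cKO libraries, with 1 cKO library far above the rest. It stood at 18.8 and 7.78 TPM in control-MO and at 4.25 and 4.31 TPM in smad1-KD libraries, the lowest group at either stage.

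In the knockdown her9 was higher at both stages. At 75% epiboly her9 stood at 5.17 and 6.72 TPM in control-MO and 17.8 and 40.7 TPM in smad1-KD libraries. At 1 dpf it stood at 35.5 and 58.1 TPM in control-MO and 73.7 and 83.6 TPM in smad1-KD libraries. The knockdown libraries were above their controls without overlap each time. In the knockout the groups overlapped at each stage, with 22.0, 12.0 and 5.82 TPM in control and 29.8, 20.1 and 15.07 TPM in smad1-cKO at 75% epiboly. At 1 dpf the values were 37.5, 27.6 and 59.3 TPM in control and 52.9, 5.89 and 42.7 TPM in smad1-cKO, 1 of which was far below the rest. The ratio of her6 to her9 at 75% epiboly was 3.63 and 1.16 in control-MO and 0.240 and 0.106 in smad1-KD libraries, which do not overlap. At 1 dpf that ratio was 1.07 and 0.394 against 1.00 and 0.627, which do. For this ratio, too, the share of all gene pairs that stood apart is not given.

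Of the neural plate genes, her3 and her5 belonged mainly to gastrulation. The level of her3, a gene of neural plate regions between the proneural clusters, was 0 to 58.4 TPM at 75% epiboly (median 12.9) and 0 to 5.14 TPM at 1 dpf (median 1.68). Within groups it spread widely: the 3 control libraries at 75% epiboly stood at 50.8, 4.84 and 0 TPM, and the smad1-KD libraries at 7.66 and 58.4 TPM. The 17 names of the neural plate and neuron list gave 16 measured genes. Their summed level was 359, 225 and 126 TPM in the same 3 controls and 171 and 372 TPM in the same smad1-KD libraries, in the same order as her3. In the smad1-cKO libraries her3 stood at 22.0, 12.8 and 8.68 TPM beside a neural sum of 317, 251 and 363 TPM, and in control-MO at 13.0 and 19.6 beside 249 and 191 TPM, in another order. Their part in the her3 level was not tested. The level of her5, which keeps the midbrain-hindbrain boundary free of neurons, was 0.913 to 41.5 TPM at 75% epiboly and 0 to 1.43 TPM at 1 dpf, and groups overlapped in each comparison at 75% epiboly. Its neighbour her11 was at 0 to 17.5 TPM.

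The Hey genes were low, and hey2 differed between groups at 1 dpf in opposite directions. The zebrafish hey2 gene, also called gridlock, is needed to build the aorta. At 1 dpf hey2 stood at 2.28, 2.27 and 1.16 TPM in control and at 11.2, 9.89 and 10.1 TPM in smad1-cKO libraries. All 3 knockout libraries were thus above all controls, with a mean of 10.4 ± 0.680 TPM against 1.90 ± 0.643 TPM (SD, n = 3 each), or 5.45-fold. In the morpholino experiment hey2 stood at 5.11 and 3.11 TPM in control-MO and at 0.669 and 0.736 TPM in smad1-KD libraries, where the knockdown was the lower group. At 75% epiboly hey2 stood at 14.1, 11.9 and 2.82 TPM in control and 5.47, 8.48 and 3.04 TPM in smad1-cKO libraries. There it stood at 1.54 and 1.58 TPM in control-MO and 5.73 and 0.0805 TPM in smad1-KD libraries, and the groups of each experiment overlapped. Its relative hey1, another vascular Notch target, was at 0 to 15.14 TPM at 75% epiboly and 0 to 2.76 TPM at 1 dpf, and its groups overlapped in all 4 comparisons.

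Somatic transcripts were unequal between the same libraries at 1 dpf. The 9 skin markers summed to 3426, 93.0 and 13.6 TPM in the 3 control libraries and to 4752, 5536 and 25.9 TPM in the 3 smad1-cKO libraries. They were higher in smad1-cKO in all 3 same-numbered pairs. So were the 6 blood markers, at 1.37, 4.24 and 0.0451 TPM in control and 113, 39.2 and 2.75 TPM in smad1-cKO. The groups overlapped for each of these lists. In replicate 3 of each group, where the skin markers were lowest, hey2 stood at 1.16 and 10.1 TPM and her6 at 26.3 and 36.1 TPM. The 9 heart and endothelium markers summed to 24.4 to 79.3 TPM in control and 20.6 to 75.0 TPM in smad1-cKO libraries, and to 35.9 and 26.8 against 23.4 and 21.7 TPM in control-MO and smad1-KD. In control and smad1-cKO the gene of that list with the largest mean was hand2, at 27.9 and 36.0 TPM. Of the list's 6 tested genes, 4 were below 0 on the log2 scale in the smad1-cKO and 2 above, where 51.7% of all genes were below. The sum therefore does not stand for each gene of the list. The 8 endoderm, yolk layer and liver markers summed to 85.2, 130.03 and 125 TPM in control and 208, 379 and 143 TPM in smad1-cKO libraries, without overlap. Groups without overlap, as for these markers, hey2 and her6, are higher in all 3 same-numbered pairs by necessity. For the skin and blood markers, whose groups overlapped, the share of all genes higher in all 3 pairs was not computed. Most of the endoderm, yolk layer and liver sum was the apolipoprotein gene apoeb, and the endoderm regulator sox32 was listed at 0 in all 6 libraries. In control-MO and smad1-KD the endoderm, yolk layer and liver markers summed to 64.8 and 54.1 against 50.8 and 26.8 TPM. There the knockdown was the lower group, as for hey2, whereas her6 was higher in the knockdown. In that comparison 76.2% of all genes were below 0 on the log2 scale. The part of somatic transcripts in the hey2 and her6 differences was not tested.

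The gene hes2.2 was all but restricted to the control-MO libraries at 1 dpf. There hes2.2 stood at 15.0 and 22.3 TPM, against 0.287 and 0.265 TPM in the smad1-KD libraries of that stage. It was listed at 0 in 12 of the 20 libraries, and the highest value outside the control-MO group was 4.62 TPM, in control replicate 1 at 1 dpf. Its neighbour hes2.1 was at 2.65 and 6.50 TPM in control-MO and 1.08 and 0.401 TPM in smad1-KD libraries at that stage, without overlap, and at 0 to 2.39 TPM elsewhere. The summed neural list stood at 173 and 289 TPM in the control-MO and 124 and 135 TPM in the smad1-KD libraries at 1 dpf. There 13 of its 16 measured genes were below 0 on the log2 scale, where 76.2% of all genes were. Its part in the hes2.2 difference was not tested.

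The differences were also fitted over whole tables with limma on the log2(TPM + 1) scale, for genes with a mean of at least 1 TPM. Such a filter passed 9 members at 75% epiboly in each experiment, 5 members in the smad1-cKO at 1 dpf and 7 in the smad1-KD at 1 dpf. At 1 dpf in the smad1-KD, hes2.2 and hey2 passed only through control-MO, where they were high. The members had been chosen with values of these libraries in view, so their differences are a description. No member was called by limma at a Benjamini-Hochberg adjusted p under 0.05. At an unadjusted limma p under 0.05 there were 0 and 2 members in the smad1-cKO at 75% epiboly and 1 dpf. In the smad1-KD there were 2 and 2. The shares of all genes, in the same order, were 1.81%, 6.38%, 1.26% and 9.9%. In the smad1-KD at 1 dpf the 2 were hes2.2 and hey2, so that count is not read against its share. The smallest adjusted p of a member in limma was 0.0505, for hes2.2 in the smad1-KD at 1 dpf, just above the threshold. Of all genes tested, 0.0% were called in the smad1-cKO at 75% epiboly, 0.00569% (smad1 alone) at 1 dpf, and 0.0% in the smad1-KD at either stage. With same-numbered libraries blocked, the smad1-cKO at 1 dpf had 14 called genes instead of 1, none of them a member.

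The log2 differences, smad1-deficient minus control, set the members' sizes against the whole table. In the smad1-cKO at 1 dpf hey2 had a log2 difference of 1.99 (SE 0.34), her6 0.59 (SE 0.22) and hes6 -0.02 (SE 0.25), where the median of all genes was -0.01. The former pair were the 2 of 5 tested members whose groups did not overlap, both higher, against 5.66% of all genes. In the smad1-cKO at 75% epiboly 0 of 9 tested members had groups apart, where 5.21% of all genes did, and the log2 differences ran from -1.14 (hey1, SE 0.80) to 1.11 (her3, SE 1.06). Between same-numbered libraries of that stage her9 was higher in smad1-cKO in all 3 pairs (log2 differences 0.42, 0.69 and 1.24), and her7 (-0.97, -1.11 and -0.39) and hey1 (-2.20, -1.06 and -0.17) were lower in all 3. The other tested members changed sign between pairs. The share of all genes with the same sign in all 3 pairs was not computed, so these members are not read as a paired effect. Leaving out control replicate 3 turned her3 to -0.26, and leaving out smad1-cKO replicate 3 turned her6 from 0.88 to -0.12.

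In the smad1-KD at 75% epiboly her7 had a log2 difference of -2.38 (SE 0.59) and her9 of 2.02 (SE 0.72), while her6 stood at -1.32 (SE 0.79) and her1 at -0.86 (SE 0.56). The median of all genes was -0.06. Of 9 tested members 3 were lower without overlap, against 14.9% of all genes, and 1 was higher, against 7.37%. After quantile normalization those shares of all genes were 11.8% and 13.4% with the same 4 members apart, and with TMM-style scaling hes6 was lower without overlap as well. In the smad1-KD at 1 dpf the median of all genes was itself -0.38. There hes2.2 stood at -3.92 (SE 0.52), hey2 at -1.56 (SE 0.52) and hes6 at -1.10 (SE 0.53), while her6 stood at 1.05 (SE 0.53) and her9 at 0.77 (SE 0.51). Of 7 tested members 3 were lower without overlap and 2 higher, against 34.7% and 5.57% of all genes. Because hes2.2 and hey2 passed the filter through control-MO, the lower count is not read against that share. After quantile normalization, which moved the median of all genes to 0.01, those shares of all genes were 20.2% and 21.8%, and the 5 members kept their directions (hes2.2 -3.43, hey2 -1.06, hes6 -0.71, her6 1.44, her9 1.13). There hey1 was higher without overlap as well (0.84). With means of 0.960 TPM in control-MO and 1.41 TPM in smad1-KD, hey1 passed the filter through smad1-KD. The higher count after quantile normalization is therefore not read against its share.

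**Figure D3:**
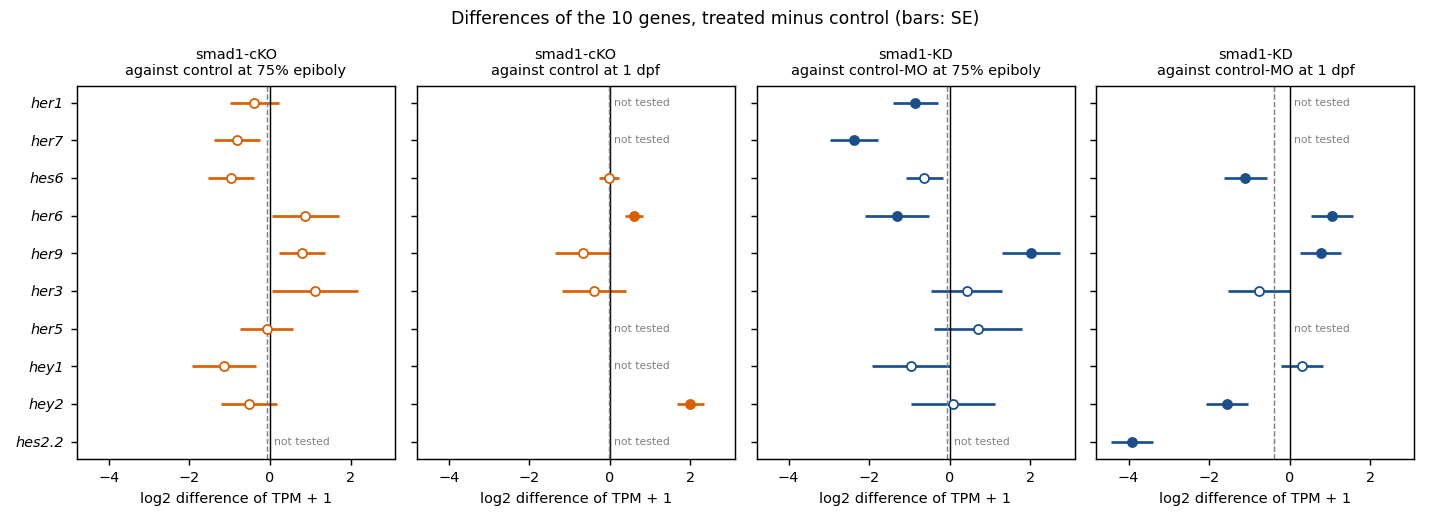
Points give the log2 difference of TPM + 1 (horizontal axis), smad1-deficient minus control, for each gene in the 4 comparisons, with SE bars; filled points mark groups that do not overlap and the dashed line is the median of all genes. In the smad1-cKO at 1 dpf hey2 lies at 1.99 and in the smad1-KD at 1 dpf at -1.56.

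Each stage's groups were also set against the other stage without a test. Among members with a mean of at least 1 TPM, 5 of 9 in control, 5 of 9 in smad1-cKO, 6 of 10 in control-MO and 5 of 9 in smad1-KD were lower at 1 dpf without overlap. The same held for 13.7%, 12.7%, 18.5% and 16.9% of all genes. Because her1, her5 and her7, and hey1 in control-MO, had means of 0 to 1.32 TPM at 1 dpf, they passed the filter through 75% epiboly. The counts are therefore not read against those shares. In every one of the 4 conditions her1, her5, her7 and hes6 were among them. Higher at 1 dpf without overlap were 1, 1, 4 and 2 members, against 48.3%, 49.5%, 58.0% and 36.4% of all genes. They were her9 in control, hey2 in smad1-cKO, her6, her9, hey2 and hes2.2 in control-MO, and her6 and her9 in smad1-KD. In control-MO hes2.2 had a mean of 0 TPM at 75% epiboly and passed the filter through 1 dpf. That count is therefore not read against its share either.

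The other genes of the family and of the Notch pathway were measured beside the members. The lists held 59 names of further Hairy and Hey genes, Groucho corepressors, Notch ligands, receptors and processing or nuclear factors, of which 53 were found. None was called by limma among 41, 51, 36 and 53 tested genes in the smad1-cKO at 75% epiboly and 1 dpf and the smad1-KD at 75% epiboly and 1 dpf. At an unadjusted p under 0.05 there were 0, 2, 3 and 5, where the shares of all genes were 1.81%, 6.38%, 1.26% and 9.9%. In the smad1-KD at 1 dpf 4 of the 5 were further Hairy and Hey genes. Their smad1-KD means were below 1 TPM, so they passed the filter through control-MO. At 75% epiboly the same held for 1 of the 3, a Notch ligand. The 2 smad1-KD counts are therefore not read against their shares. In the smad1-cKO 23 of 41 were below 0 on the log2 scale at 75% epiboly, against 56.7% of all genes, and 36 of 51 were above 0 at 1 dpf, against 48.3%. In the smad1-KD 25 of 36 were below 0 at 75% epiboly, against 54.8% of all genes, and 27 of 53 at 1 dpf, against 76.2%. These counts take gene copies, such as the near-identical her15.1 and her15.2, as separate genes, so not all of the counted genes are independent.

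Among the further Hairy genes the most abundant were her2, her12 and her15.1, the last of which has a near-identical copy, her15.2, so that its reads may be split. At 75% epiboly her12 stood at 23.6 and 20.7 TPM in control-MO and 10.8 and 3.32 TPM in smad1-KD libraries, and her2 at 4.80 and 17.4 against 0 and 2.11 TPM. Neither gene's groups overlapped, as for her1 and her7, whereas those of her15.1 did, at 9.04 and 15.05 against 11.03 and 4.74 TPM. Of the 8 tested genes among the further Hairy and Hey genes, 2 were lower without overlap and 1 was higher. The shares of all genes were 14.9% and 7.37%. The 1 higher gene had means of 0.647 TPM in control-MO and 1.46 TPM in smad1-KD. It passed the filter through smad1-KD, so the higher count is not read against its share. At 1 dpf her12 stood at 5.92, 1.38 and 6.37 TPM in control and 16.2, 11.2 and 14.0 TPM in smad1-cKO libraries, again without overlap, while the smad1-KD libraries, at 14.1 and 115 TPM, lay on either side of control-MO at 19.4 and 49.8 TPM. In the smad1-cKO at 1 dpf 1 of the list's 16 tested genes, her12, was higher without overlap, against 5.66% of all genes. The level of her15.1 was 3.33 to 124 TPM over the 20 libraries.

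Notch pathway transcripts were present at both stages. The receptor notch1a was at 29.9 to 106 TPM at 75% epiboly and 5.79 to 37.0 TPM at 1 dpf. The ligand dld, which acts in the segmentation clock, stood at 15.6, 36.3 and 61.3 TPM in control, 5.79, 26.7 and 69.6 TPM in smad1-cKO, 9.86 and 22.6 TPM in control-MO and 10.9 and 5.36 TPM in smad1-KD libraries at 75% epiboly. At 1 dpf dld was at 1.11 to 6.91 TPM. The gamma-secretase subunit genes psenen and aph1b, whose products help to cleave the receptor, had means of 158 and 99.5 TPM over the 20 libraries. Of the Groucho corepressors tle3a, tle2a and tle2c were the most abundant, and tle3a was at 13.6 to 152 TPM at 75% epiboly and 8.60 to 17.8 TPM at 1 dpf.

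**Figure D4:**
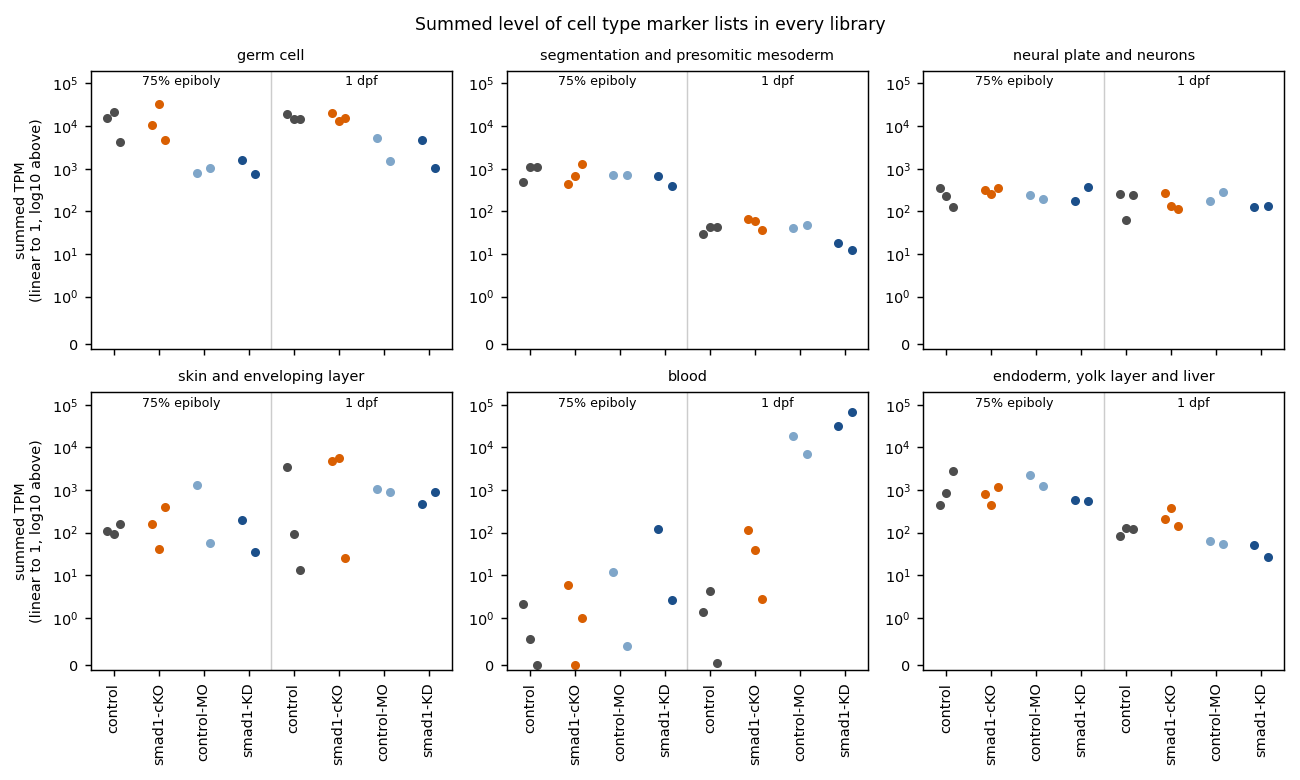
Each panel plots the summed TPM of 1 marker list (vertical axis, linear up to 1 and log10 above) for every library of the 8 groups. The segmentation markers lie at 392 TPM or more at 75% epiboly and at 66.8 TPM or less at 1 dpf, and the blood markers are at 6941 TPM or more in the 4 morpholino libraries at 1 dpf alone.

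Genes whose pattern lay closest to each member were found by the mean absolute difference of log2(TPM + 1) over the 20 libraries, each gene centred on its own mean, among 12515 named genes. The closest gene to her1 was her7 (0.61 log2 units), followed by eve1 (0.63), a ventral and posterior homeobox gene. The closest to her7 was eve1 (0.56), followed by her1. For her1 the median distance over all genes was 3.38. The closest genes were notum1a (0.49) and nop58 (0.50) for hes6, mych (0.50) and mat2aa (0.61) for her5, and bach1b (0.47) and tespa1 (0.52) for her6. They were atp6v0d1 (0.54) and urod (0.57) for her9, wdr48a and sox19b (0.95 each) for her3, and col2a1a (0.53) and fstl4 (0.57) for hes2.2. For hey1 they were mn1b (0.42) and zbtb40 (0.43), and for hey2 trim62.2 (0.46) and ube2z (0.53). These libraries share stages and tables, and low genes lie close to each other on this measure.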

How the data were processed

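RNA was measured in 20 libraries of sorted PGCs, made with a full-length mRNA amplification kit and a transposase library kit, per the labels' protocols. The tables deposited by the authors hold TPM, 1 column per library, in 4 tables of 32520 genes. Per the submitters' processing notes STAR 2.7.10b, StringTie 2.2.1 and GRCz11 (danRer11) were used, with no role stated. Of the genes, 896 had no name. The amplicon tables on smad1 editing were not used here. Groups and replicate numbers came from the titles.

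Each table was fitted separately with limma 3.58.1 (R 4.3.3, intensity trend) on log2(TPM + 1), for genes with a mean of at least 1 TPM, with Benjamini-Hochberg adjustment over all genes and a threshold of 0.05. The fit was tested on simulated data with known changes, and the share of them recovered is not given here. Figures used matplotlib 3.10.9. The fits were repeated without each library in turn, with a replicate block, without the trend, after TMM-style or quantile scaling, with all genes above 0 or those of mean 5 TPM and more, and with 0.1 as pseudocount.

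Equal replicate numbers were read as pairs only if at least 3 pairs each had deviations from the group means correlated above 0.1. This held in the knockout experiment (0.176, 0.196 and 0.417 at 75% epiboly, and 0.265, 0.105 and 0.272 at 1 dpf) but the morpholino experiment has 2 pairs per stage, too few. Libraries of different number were not correlated for comparison. The main fit, with every SE and p-value given here, did not use the pairs.

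The members and lists were chosen with earlier results of these data known. The text names all members and smad1, up to 3 genes of each other list by mean TPM, and the 2 genes of closest pattern per member; her11 and hes2.1 were chosen after their values were seen. 1 gene that this rule names is not reported here. No table gave sequences.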

Additional observations from a re-analysis of the deposited data

Results flagged for a closer look

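The gene hey2 differed in opposite directions in the 2 experiments at 1 dpf, where every smad1-cKO library was above every control and every smad1-KD library below every control-MO library. The log2 difference was 1.99 in the smad1-cKO and -1.56 in the smad1-KD, which lie 3.55 apart, and this gap was not tested. The gene her6 differed in opposite directions in the smad1-KD at the 2 stages, with all knockdown libraries below control-MO at 75% epiboly and above it at 1 dpf. Its log2 difference was -1.32 at 75% epiboly and 1.05 at 1 dpf, a gap of -2.37 that was likewise not tested. Relative to the median of all genes in each comparison (-0.06 and -0.38), both directions of her6 held.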

How the results depend on the processing

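In the smad1-cKO at 75% epiboly the count of called genes was 0 under all alternatives. In the smad1-cKO at 1 dpf it was 1, and 14 with the replicate block; leaving out each library gave 1 to 46, the highest without smad1-cKO replicate 3 and 2 without control replicate 1. In the smad1-KD at 75% epiboly it was 0, and 27 with the replicate block. In the smad1-KD at 1 dpf it was 0, but 43 with a minimum mean of 5 TPM, 10 without the intensity trend, 866 with the replicate block and 0 to 41 when leaving out each library (41 without control-MO replicate 1, 5 without control-MO replicate 2). The cause was not tested. The morpholino libraries share only a replicate number, with a correlation of deviations of 0.0777 at 75% epiboly and 0.601 at 1 dpf. Of the members only hes2.2 was called in any alternative, lower in the smad1-KD at 1 dpf with a minimum mean of 5 TPM, without the trend, with the replicate block and without control-MO replicate 1. That gene passed the filters through control-MO, where it was high, and was chosen with these values in view, so those calls are a description. Where 1 library of a group of 2 was left out, the remaining one was assumed to vary like the other group. Of 30 member differences 19 kept their sign under every alternative that could be run for them, among them hey2 and her6 at 1 dpf in both experiments and her7 and her9 at 75% epiboly in both. In the smad1-cKO her1, her3, her5 and her6 did not at 75% epiboly, nor her3, her9 and hes6 at 1 dpf. In the smad1-KD her3, her5 and hey2 did not at 75% epiboly, nor her3 at 1 dpf. The minimum mean of 5 TPM gave no value for members below it, such as hey2 in the smad1-KD. TPM keep no depth, so low values near 1 TPM carry an unknown counting error.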
